A study of Mus musculus with 60 samples.

Results

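KLF4 is a Kruppel-like zinc-finger transcription factor that binds GC-rich, CACCC-like DNA and helps to keep mouse embryonic stem (ES) cells in the naive, self-renewing state, downstream of LIF and STAT3 signalling. P53 is the transcription factor that responds to DNA damage. It raises genes for cell-cycle arrest and death, and in ES cells it is also known to act on pluripotency genes. The regions described here are the KLF4 sites that wild-type (WT) ES cells still had after treatment with etoposide, a drug that traps topoisomerase II on DNA and so breaks both strands. They are called kept sites. A kept site is a KLF4 ChIP-seq peak of untreated WT replicate 1, with the mitochondrial genome left out, that overlapped by at least 1 bp a peak of untreated WT replicate 2 and a peak in each of the 2 treated WT libraries. Of 30589 peaks in untreated WT replicate 1, 23086 were also found in replicate 2, and 4843 of these (21.0%) were kept. The remaining 18243 reproducible sites are called not kept. Of these, 1476 had a peak in 1 treated WT library and 16767 in neither.

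The series asks how Lnc956, a long noncoding RNA, bears on the transcriptome and on KLF4 and P53 binding in ES cells with damaged DNA. KLF4 peak lists covered 16 libraries: WT cells, Lnc956 knockout cells, knockout cells that overexpress full-length Lnc956 (full-length rescue), and knockout cells that overexpress Lnc956 lacking nucleotides 862 to 1253 (deletion rescue), each untreated or given 10 uM etoposide for 3 h, with 2 libraries per group. Both rescue lines carry the knockout. P53 peak lists, made with an antibody against phosphorylated P53, covered 8 libraries (2 per group) of WT cells and of Lnc956 knockdown cells without and with 10 uM etoposide, with the duration not given in the labels. RNA-seq came from the same 4 kinds of cells (2 libraries per group), and from a time course of Lnc956 knockout and P53 knockdown cells at 0 h and 3 h. At 3 h both P53 knockdown libraries were labelled 1 uM. The knockout libraries at 3 h were labelled 1 uM in replicate 1 and 10 uM in replicate 2, so this group mixes doses. WT, knockout and P53 knockdown cells at 6 h and 9 h were not compared, but they entered the same model and its variances. Of these, the knockout and P53 knockdown groups at 6 h mix doses too, with 10 uM in replicate 1 and 1 uM in replicate 2. The labels do not say whether a line was a single clone, nor whether the libraries of a group came from separate cultures, so the spread between them may be technical. All cells grew in medium with serum replacement and LIF. Among 6 ES cell markers (Pou5f1, Sox2, Nanog, Zfp42, Esrrb and Dppa5a), all 6 passed the filter on low values, with summed levels in untreated WT cells of 4255 to 4553 FPKM.

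The members were selected on the 4 WT KLF4 libraries, so every value from those libraries is given as a description. Peaks were called by the authors in each library separately, and the fold of a peak is the peak caller's own enrichment over the control, which also depends on the depth and yield of a library. The KLF4 lists held 5690 to 32540 peaks, the 2 shortest being those of treated WT cells, and the depth of the libraries is unknown because no file gives read counts.

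The untreated WT lists stood apart by chromosome. Chromosome 6 held 4.29% and 4.39% of their peaks, against 9.12% and 9.28% in treated WT cells and 7.13% to 8.61% in the 12 libraries of the knockout-derived lines. Chromosome 8 held 6.65% and 6.71% of their peaks, against 7.74% to 10.4% in all other KLF4 lists. On chromosome 6, 39.1% of the reproducible sites were kept (402 of 1027), and on chromosome 8 28.4% (427 of 1502), whereas the 18 chromosomes other than 6, 8 and Y ranged from 15.8% to 23.1%. Copy number was not measured, and its part in which sites were kept was not tested. Without them 4014 sites were kept, and the tests on peaks below are also given without them. The lists of the knockout-derived lines did not group by line or by treatment either. After centring by library and by site, the log2 folds of treated knockout and untreated deletion rescue libraries correlated at r of 0.42 to 0.44 over 3811 kept sites. Treated and untreated libraries of the same line correlated at r of -0.15 to -0.12 in knockout and full-length rescue cells and at -0.23 to -0.22 in deletion rescue cells. Centring by site makes r between groups negative on average, so a weakly negative r does not by itself show unlike profiles. Untreated full-length rescue and treated deletion rescue libraries also correlated positively (0.20 to 0.25), as did untreated knockout and treated full-length rescue libraries (0.11 to 0.24). Libraries of the same group correlated more closely (r of 0.65 in untreated knockout cells, 0.76 to 0.92 in the others). The points in each r share their libraries. Whether the labels of the treated knockout and untreated deletion rescue libraries are right was not tested. Every treated against untreated value of these 2 lines rests on them. The treatment tests of peak share and median fold below are therefore also given with these 2 labels exchanged and for the full-length rescue line alone. The site-by-site ratios, their correlations and the values at named sites are given only as labelled.

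**Figure D1:**
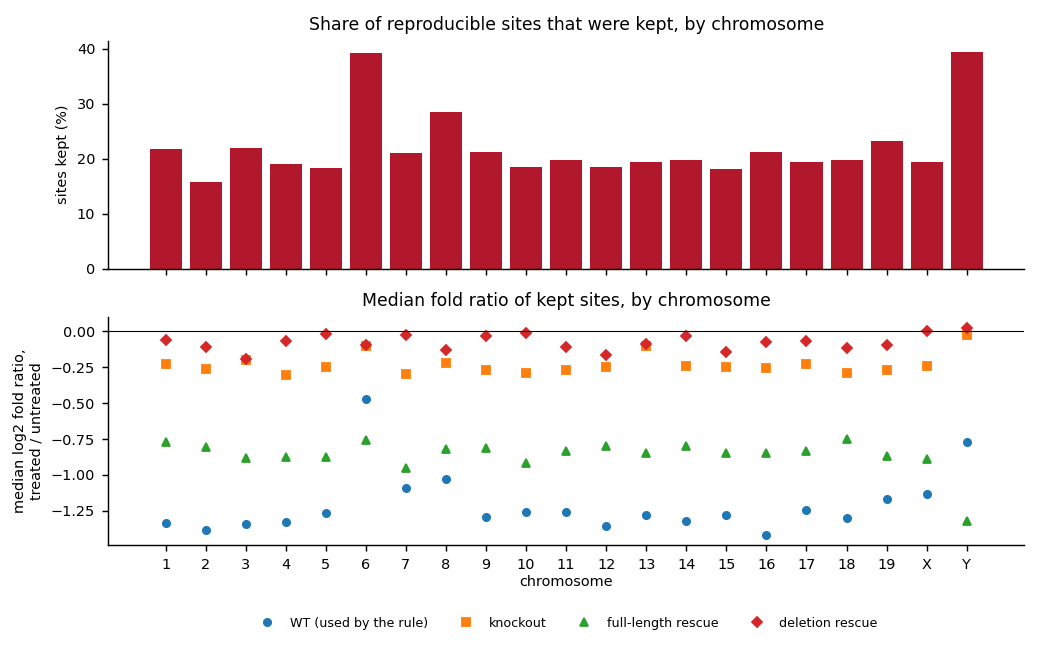
Top, share of reproducible untreated WT sites that were kept, in percent, per chromosome. Bottom, median over kept sites of the log2 ratio of treated to untreated fold per chromosome, with a symbol for each line. Chromosomes 6, 8 and Y have the tallest bars, and chromosome 6 has the WT median nearest 0 (-0.47). Its medians in the other 3 lines lie within the range of the 18 chromosomes other than 6, 8 and Y. In knockout (-0.10) and full-length rescue cells (-0.76) they lie near the end of that range closest to 0.

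Sequences are shown for the 8 kept sites named below, for their high fold or because they lie at a fixed gene, where the 50 bases on each side of the KLF4 summit fell inside a RefSeq promoter window (build GRCm38.p6, 250 bases before to 50 after a transcription start). They show what DNA lies under a retained KLF4 summit, 5′ to 3′ on the strand of the promoter's gene. Capitals mark matches to the KLF motif GGGNGTGG or its reverse complement CCACNCCC, N being any base.
Dop1b, chr16:93711729-93711829, plus strand: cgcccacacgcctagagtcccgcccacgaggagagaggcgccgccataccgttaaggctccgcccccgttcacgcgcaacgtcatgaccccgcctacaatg
BC005624, chr2:30982049-30982149, minus strand: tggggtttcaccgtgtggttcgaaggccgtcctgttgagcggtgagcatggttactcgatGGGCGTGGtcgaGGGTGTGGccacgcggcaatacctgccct
Zfp42, chr8:43306995-43307095, minus strand: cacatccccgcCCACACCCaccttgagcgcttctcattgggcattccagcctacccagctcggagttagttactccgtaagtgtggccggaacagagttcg
Rab43, chr6:87811907-87812007, minus strand: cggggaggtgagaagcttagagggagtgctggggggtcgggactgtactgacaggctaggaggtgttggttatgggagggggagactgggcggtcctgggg
Pou5f1 (window of the neighbouring Cchcr1), chr17:35517012-35517112, plus strand: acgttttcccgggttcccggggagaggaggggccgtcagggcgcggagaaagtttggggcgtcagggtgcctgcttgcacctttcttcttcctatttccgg
Klf4 (window of the neighbouring Gm12506), chr4:55532646-55532746, plus strand: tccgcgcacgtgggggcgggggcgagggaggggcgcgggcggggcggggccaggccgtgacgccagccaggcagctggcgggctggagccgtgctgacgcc
Cdkn1a, chr17:29093649-29093749, plus strand: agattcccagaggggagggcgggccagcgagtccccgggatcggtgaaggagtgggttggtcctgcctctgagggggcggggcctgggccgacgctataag
Tspan17, chr13:54789227-54789327, plus strand: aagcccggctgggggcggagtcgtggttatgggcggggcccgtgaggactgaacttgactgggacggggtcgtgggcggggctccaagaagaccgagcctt
The BC005624 stretch held 2 matches and that of Zfp42 held 1. The other 6 stretches, at Dop1b, Rab43, Pou5f1, Klf4, Cdkn1a and Tspan17, held no match to these letters.

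Kept sites were the strong and broad sites of untreated WT cells. In untreated WT replicate 1 their median fold was 22.6 (quartiles 15.4 and 31.8) and their median width 1196 bp (quartiles 894 and 1576 bp), against 7.58 and 557 bp for sites not kept. The classes overlapped, with folds of 2.86 to 117 among kept sites and of 2.65 to 65.9 among the others. The share kept rose with fold, from 1.67% of 3772 sites under a fold of 6 to 49.6% of 2657 sites from 16 to 24 and 95.7% of 1223 sites at 32 or more. In treated WT cells the kept sites had lower folds, with medians of 8.54 and 8.68, and median widths of 678 and 614 bp. The widest kept site spanned 43870 bp at chr8:123536640-123580509, over 5S ribosomal RNA gene repeats.

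At the edge of the rule, the kept sites with the lowest treated folds lay near Rn18s-rs5 (folds of 3.005 and 3.36), Cdk8 (4.14 and 3.64) and Vgf (3.88 and 7.07). Just outside it lay sites of high fold in a single treated WT library, near Rybp (29.3 in replicate 2), Ahnak (26.2 in replicate 2) and Med16 (17.6 in replicate 1). The Rybp site had folds of 6.02 and 6.40 in untreated WT cells, 49.7 and 49.98 in treated knockout cells and 53.4 and 52.6 in untreated deletion rescue cells, with 6.39 to 9.51 in the other knockout-derived libraries. At the Ahnak site the treated knockout and untreated deletion rescue libraries lay far apart, at 5.78 and 5.35 against 56.9 and 56.1. The other knockout-derived libraries had 27.8 to 48.2 there, and untreated WT cells 7.13 and 5.19.

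The 12 KLF4 libraries of the knockout-derived lines had no part in the rule. In untreated cells a peak was found at 99.8% and 99.1% of kept sites in knockout cells, at 99.8% and 99.9% in full-length rescue cells and at 99.9% and 99.9% in deletion rescue cells. In treated cells the shares were 99.5% and 99.6% in knockout, 96.9% and 96.4% in full-length rescue and 99.7% and 99.8% in deletion rescue cells. Sites not kept had a peak less often in each of these libraries, from 34.5% in treated full-length rescue replicate 2 to 70.03% in untreated knockout replicate 1. The difference between the classes averaged 43.0 percentage points and was positive in 12 of 12 libraries, from 29.7 to 61.9 points (exact two-sided sign-flip permutation test over libraries, p = 0.000488, the smallest it can give). Without chromosomes 6 and 8 it was 44.1 points (exact permutation p = 0.000488), and without the treated knockout and untreated deletion rescue libraries 43.2 points (exact permutation p = 0.00781, the smallest that 8 libraries can give). Kept sites had the higher folds in untreated WT cells, and every library was read at the same sites. A positive difference was therefore favoured by the choice of sites, and these p-values do not separate being kept from site strength. A peak in all 12 libraries was found at 4606 kept sites (95.1%) and at 4156 sites not kept (22.8%).

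**Figure D2:**
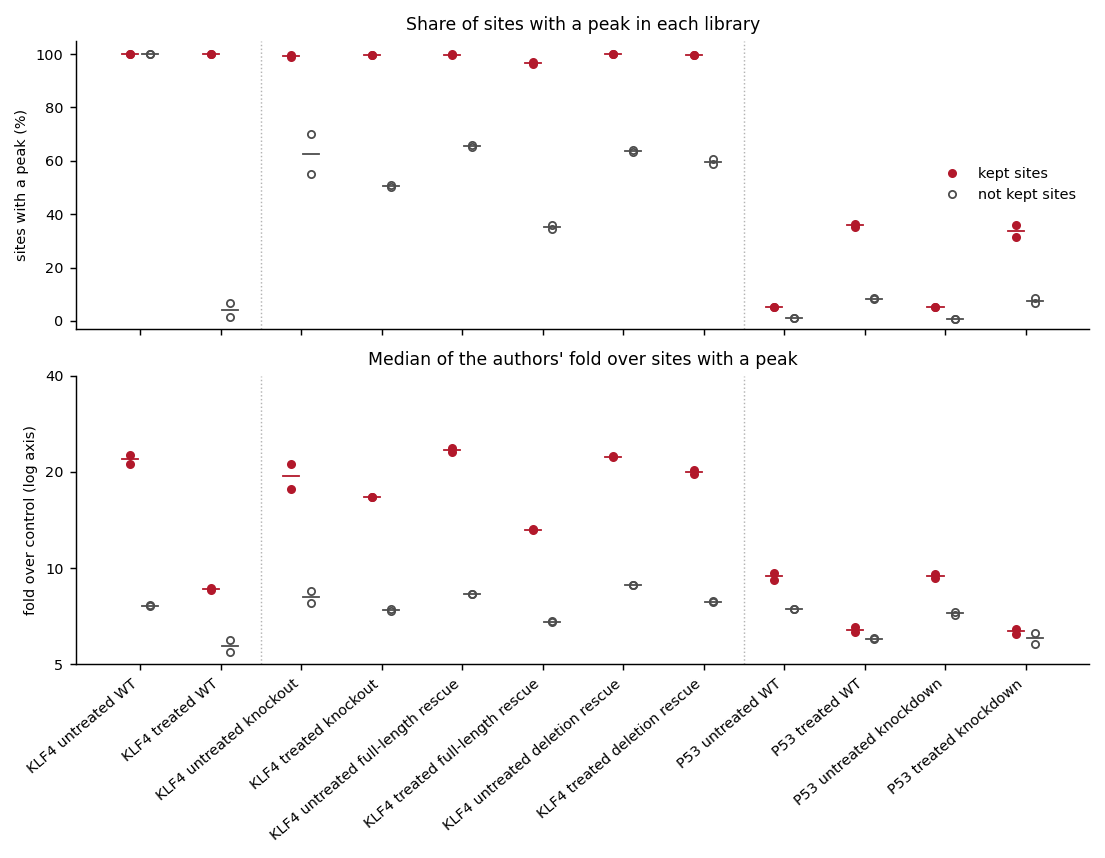
Top, share of kept and not kept sites with a peak (percent) in each of 24 libraries, points being libraries and bars the means of 2. Bottom, median of the authors' fold over the sites with a peak, on a log axis. Kept sites lie above sites not kept in every group outside the rule, and the treated full-length rescue libraries have the lowest kept share among the knockout-derived lines (96.9% and 96.4%).

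Since kept sites had high folds, the classes were also compared at like fold. Among sites with a fold of 8 to 12 in untreated WT replicate 1, 458 were kept and 5028 were not. A peak in treated knockout cells, averaged over both libraries, was found at 98.8% of the kept and 58.7% of the others. In treated full-length rescue cells the shares were 91.9% and 39.9%, and in treated deletion rescue cells 99.6% and 68.5%. From 24 to 32 the shares were 99.7% and 93.7% in knockout, 98.9% and 89.9% in full-length rescue and 99.9% and 98.9% in deletion rescue cells. The classes thus lay farthest apart at low fold and close together at high fold.

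**Figure D3:**
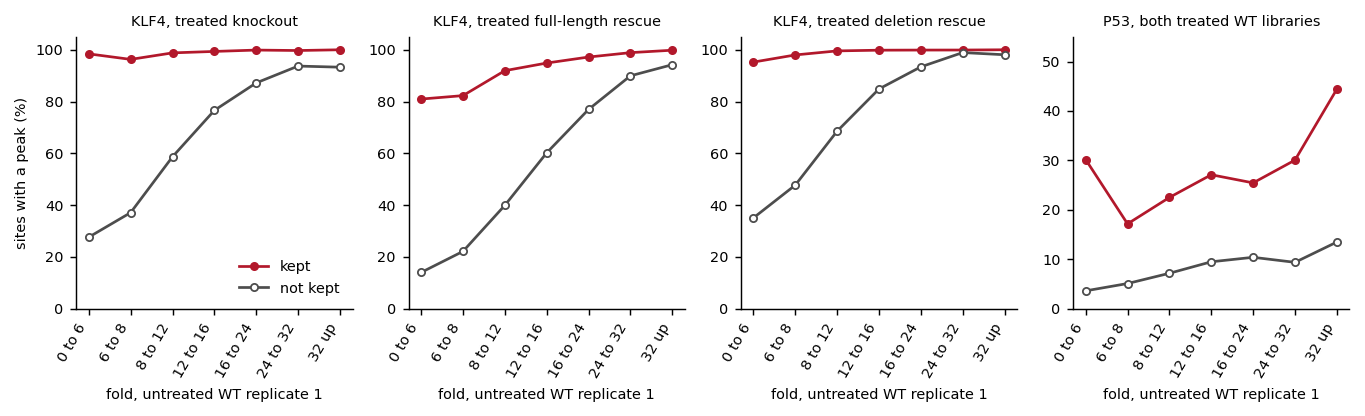
Share of kept and not kept sites with a peak (percent) by bin of the fold in untreated WT replicate 1, for KLF4 in 3 treated lines (mean of 2 libraries) and for P53 in both treated WT libraries. At a fold of 8 to 12, kept sites have a peak in treated full-length rescue cells at 91.9% and the others at 39.9%. The P53 panel has its own axis.

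The mean share of kept sites with a peak in these lines was 99.7% untreated and 98.7% treated, a difference of -1.05 percentage points that did not pass the test (exact permutation within lines, two-sided, p = 0.176). Without chromosomes 6 and 8 it was -1.08 points (exact permutation p = 0.176), and with the labels exchanged -0.83 points (exact permutation p = 0.333). Without untreated knockout replicate 2, which had fewer peaks than replicate 1 (22962 against 32540), the difference was -1.16 points (exact permutation p = 0.00926). By line the change was 0.155 points in knockout, -3.16 in full-length rescue and -0.134 in deletion rescue cells. The treated full-length rescue libraries lacked a peak at 150 and 175 kept sites, and the other 10 libraries at 4 to 46.

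With the libraries as labelled, the median fold at kept sites was lower after treatment, a result that rests on the labels doubted above. The median fold over all kept sites was 21.2 and 17.1 in untreated and 16.7 and 16.6 in treated knockout cells. It was 23.01 and 23.7 in untreated and 13.2 and 12.6 in treated full-length rescue cells. In deletion rescue cells it was 22.2 and 22.4 untreated and 19.7 and 20.3 treated. As labelled, treated and untreated medians did not overlap within any line, and on the log2 scale they differed by -0.40 over the 3 lines (exact permutation within lines, two-sided, p = 0.00926, the smallest it can give). The difference was -0.19 in knockout, -0.85 in full-length rescue and -0.16 in deletion rescue cells, and -0.41 over the lines without chromosomes 6 and 8 (exact permutation p = 0.00926). With the labels of treated knockout and untreated deletion rescue libraries exchanged, the difference was 0.23 in knockout and 0.26 in deletion rescue cells, the opposite sign, and -0.12 over the 3 lines (exact permutation p = 0.43). The full-length rescue line alone gave -0.85, where the smallest exact permutation p is 0.333. A lower fold after treatment in all 3 lines thus depends on these labels. The difference between lines was not tested. The fold is not scaled between lists, and the lists of treated full-length rescue cells were also the shortest of these lines (14575 and 13948 peaks).

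Site by site, and with the libraries as labelled, both treated folds lay under both untreated folds at 4442 of 4629 kept sites with a peak in all 4 full-length rescue libraries (96.0%), at 2675 of 4777 in knockout (56.0%) and at 2355 of 4823 in deletion rescue cells (48.8%). The opposite, with both treated folds above both untreated folds, held at 50 (1.08%), 748 (15.7%) and 1556 (32.3%) sites. In WT cells, which set the rule, 4482 of 4843 sites (92.5%) were lower in both treated libraries. The median log2 ratio of mean folds was -1.22 in WT, -0.24 in knockout, -0.84 in full-length rescue and -0.09 in deletion rescue cells. Kept sites within 1 kb of a transcription start had medians of -1.29 in WT, -0.31 in knockout, -0.81 in full-length rescue and -0.04 in deletion rescue cells. Those more than 10 kb from any start had -1.02, -0.13, -0.88 and -0.19. In knockout cells both treated folds were lower at 63.1% of sites near a start and 44.7% of far ones, and higher at 10.8% and 24.5%. These differences were not tested. The WT median was -0.47 on chromosome 6, -1.03 on chromosome 8 and -1.28 over the other chromosomes. In the other lines chromosome 6 gave -0.10, -0.76 and -0.10, in the same order as above. The ratios of WT cells correlated with those of knockout cells at r = 0.26, of full-length rescue cells at -0.0036 and of deletion rescue cells at -0.20 over 4629 to 4823 sites. Those of knockout and deletion rescue cells, which both rest on the doubted labels, correlated at -0.42 over 4770 sites.

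**Figure D4:**
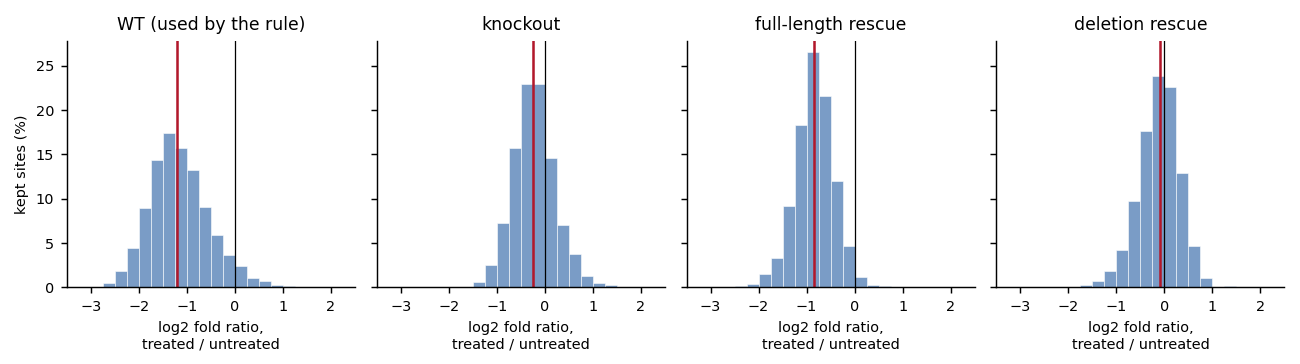
Distribution over kept sites of the log2 ratio of treated to untreated fold (mean of 2 libraries each), in percent of the sites with a peak in all 4 libraries of a line. The black line marks 0 and the red line the median, which is -1.22 in WT, -0.24 in knockout, -0.84 in full-length rescue and -0.09 in deletion rescue cells.

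P53 peaks were found at kept sites mainly after treatment, when the P53 lists as a whole were longer. These lists held 981 to 1377 peaks in untreated and 5046 to 6527 in treated libraries. In WT cells 5.33% and 5.37% of kept sites had a P53 peak untreated and 35.2% and 36.4% treated. In Lnc956 knockdown cells the shares were 5.06% and 5.33% untreated and 31.6% and 35.8% treated. The treated and untreated libraries did not overlap in either genotype, and the shares differed by 29.5 percentage points on average (30.5 in WT, 28.5 in knockdown). The exact permutation test within genotype gave p = 0.0556, the smallest this design allows, so it could not pass 0.05. The difference was 27.9 points without chromosomes 6 and 8, and 12.9 points when a peak had to cover 0.5 of a site (exact permutation p = 0.0556 for each). Of sites not kept, 0.970% and 0.987% had a P53 peak in untreated and 8.16% and 8.56% in treated WT cells. A higher share after treatment was thus not particular to kept sites. At a KLF4 fold of 16 to 24, a P53 peak in both treated WT libraries was found at 25.4% of 1317 kept sites and 10.4% of 1340 others. Of 4789 P53 sites found in both treated WT libraries, 33.3% overlapped a kept KLF4 site and 24.01% a site not kept.

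The distance between the summits was read only where a P53 peak overlapped the KLF4 site. That overlap itself keeps the distance short, and no expected distance was computed. At 1487 kept sites with a P53 peak in both treated WT libraries the summits were a median of 145 bp apart (quartiles 56 and 311 bp), and 38.1% lay within 100 bp. At 1158 such sites that were not kept the median was 149 bp. Kept sites with this P53 overlap had a median fold of 26.3 in untreated WT replicate 1, and 2681 kept sites with no P53 peak in any treated library had 20.5. Their median log2 fold ratios were -1.11 and -1.28 in WT, -0.30 and -0.19 in knockout, -0.79 and -0.87 in full-length rescue and -0.00035 and -0.15 in deletion rescue cells. A P53 peak in an untreated library was found at 380 kept sites (7.85%), against 1.36% of sites not kept. The highest such P53 folds, of 94.5 to 142, lay at 5 kept sites that had a peak in all 4 untreated P53 lists and KLF4 folds of 96.3 to 117, among them one at Gm10925 on chromosome 1.

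Kept sites lay at transcription starts more often than the others. Starts come from RefSeq promoter windows, which cover 79.9% of protein-coding genes and none on chromosome 18, so shares may be too low. The summit lay within 1 kb of a start at 2925 of 4742 kept sites off chromosome 18 (61.7%, exact 95% binomial interval 60.3% to 63.1%, for counting error only) and at 6504 of 17831 sites not kept (36.5%, 35.8% to 37.2%). A further 13.6% of kept sites lay 1 to 10 kb away and 24.7% farther. Within bins of fold the classes were closer, and in each bin under a fold of 16 the share was lower at kept sites. Under 6 it was 12.9% of kept and 20.9% of other sites, and from 8 to 12 it was 37.1% and 41.7%. From 12 to 16 the shares were 51.6% of kept and 53.5% of other sites, and from 24 to 32 they were 70.3% and 64.2%.

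The promoter windows that held a kept summit were rich in G and C and in KLF motifs. A total of 1764 windows held a kept summit, and their median GC content was 67.3% (quartiles 62.7% and 71.7%), against 65% for 2987 windows with a summit not kept and 50.7% for 27748 windows with no untreated WT summit. The motif GGGNGTGG, searched on both strands, was in 39.4%, 24.7% and 15.4% of these windows and in 17.6% of all 32817 promoter windows of this length. At like GC content of 60% to 65% the shares were 38.5%, 24.6% and 24.8%, and at 65% to 70% they were 42.9%, 29.2% and 27.5%. The SP motif GGGCGG, which may overlap the KLF motif, was in 90.3% of windows with a kept summit, 76.8% with a summit not kept and 35.6% of all windows. The NFY motif CCAAT was in 44.1%, 36.4% and 37.4% of them. Among 1014 kept sites whose summit and the 50 bases on each side lay inside a window, 16.3% held GGGNGTGG there (exact 95% interval 14.1% to 18.7%), against 9.91% of 1705 sites not kept (8.53% to 11.4%). A match is a string in the reference sequence and does not show binding.

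Of the kept sites near a gene and without an untreated P53 peak, the 10 of highest mean fold over the WT libraries lay near Abtb1, Dop1b, Klf16, Limk1, BC005624, Tbl2, Mms19, Tspan17, Rab43 and Klf3. In 9 of the 10, the exception being the Klf16 site, the summit lay within 1 kb of a start. The Dop1b site (chr16:93710898-93712545, mm10) had folds of 84.2 and 84.9 in untreated and 36.9 and 36.9 in treated WT cells. It had 70.9 and 66.5 untreated and 56.6 and 59.5 treated in knockout cells, and no P53 peak in any library. The Tbl2 site had folds of 86.4 and 81.0 untreated and 35.7 and 33.3 treated in WT cells, 119 and 122 untreated and 58.4 and 56.8 treated in full-length rescue cells, and 78.9 and 78.0 untreated and 99.8 and 105.3 treated in deletion rescue cells. It also had P53 folds of 12.2 and 12.1 in treated WT and 10.6 and 11.1 in treated knockdown cells. The Mms19 site, at a gene for iron-sulphur protein assembly, went from 78.2 and 77.0 to 39.9 and 39.1 in WT cells. The sites on chromosome 6 behaved otherwise in WT cells, with folds of 65.2 and 66.7 untreated and 69.7 and 67.7 treated at Abtb1, and of 61.3 and 58.7 untreated and 53.6 and 53.05 treated at Rab43.

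Klf3, a Kruppel-like repressor, had a site at its start (chr5:64802489-64804607) whose folds moved in opposite directions between lines. They were 76.5 and 73.9 untreated and 38.1 and 37.4 treated in WT cells, and 52.0 and 51.8 untreated and 25.1 and 26.8 treated in full-length rescue cells. In knockout cells they were 50.9 and 40.6 untreated and 71.1 and 75.04 treated, and in deletion rescue cells 74.1 and 80.8 untreated and 48.9 and 57.7 treated. The Klf3 transcript was at 17.9 and 14.1 FPKM (fragments scaled by transcript length and library size) in untreated and 14.4 and 14.5 FPKM in treated WT cells, a change that did not pass the test (log2 change -0.13 ± 0.12 SE, adjusted p = 0.36, limma).

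**Figure D5:**
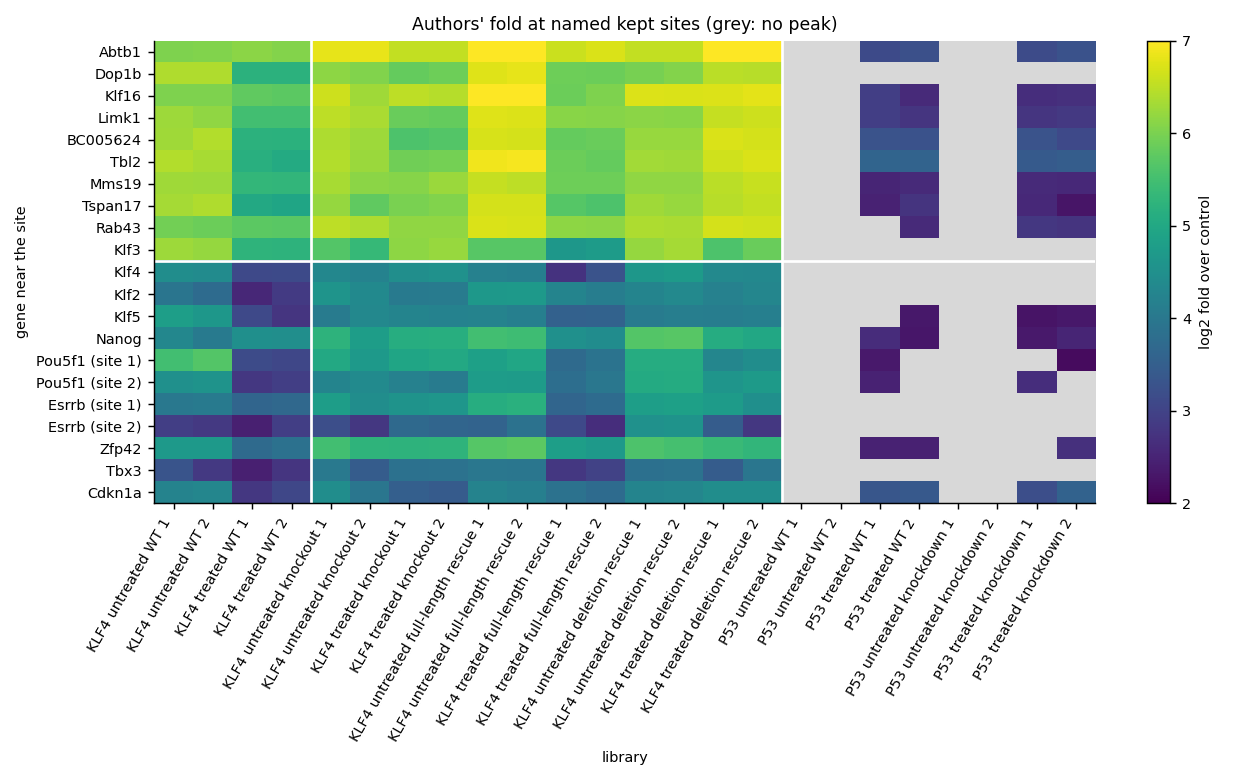
Log2 of the authors' fold at named kept sites (rows, by the nearby gene) in 24 libraries (columns), with grey where a library had no peak. The upper 10 rows are the sites of highest WT fold and the lower 11 rows the kept sites at fixed genes. Treated WT libraries have lower values than untreated ones in most rows. No row has an untreated P53 peak, which for the upper 10 rows was a condition of their choice. Over all kept sites, 380 (7.85%) had a P53 peak in an untreated library.

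At the pluripotency genes, kept sites and sites not kept often lay side by side. Klf4 itself had a kept site 14 bp from the nearest listed start (chr4:55532129-55533653) with folds of 22.0 and 21.2 in untreated and 8.54 and 8.68 in treated WT cells. The same site had 19.8 and 18.7 untreated and 22.2 and 23.2 treated in knockout cells, and 18.3 and 17.96 untreated and 6.66 and 9.76 treated in full-length rescue cells. Klf4 RNA was at 18.5 and 18.4 FPKM untreated and 33.4 and 27.7 FPKM treated in WT cells (log2 change 0.69 ± 0.08 SE, adjusted p = 5.8e-05, limma). Nanog, a core naive factor, had a kept site within 10 kb of the gene on chromosome 6 (chr6:122702298-122703193) with folds of 19.9 and 16.5 untreated and 22.6 and 22.0 treated in WT cells, 44.7 and 43.8 untreated and 22.7 and 21.6 treated in full-length rescue cells, and P53 folds of 6.21 and 4.93 in treated WT cells. Nanog RNA fell from 176 and 171 to 52.3 and 48.2 FPKM in WT cells (log2 change -1.77 ± 0.05 SE, adjusted p = 1.6e-08, limma).

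Pou5f1, which encodes OCT4, had 2 kept sites within 10 kb. The larger (chr17:35503418-35507435) had folds of 44.8 and 50.5 untreated and 8.86 and 8.38 treated in WT cells. A site between them, with its summit at 839 bp from a start (chr17:35508550-35510596), had 35.5 and 42.7 in untreated WT cells and no peak in either treated WT library. That site had folds of 9.90 and 10.9 in untreated knockout cells and 4.73 to 11.6 in the other knockout-derived libraries, so its high fold was seen in untreated WT cells alone. Zfp42, a naive marker also called Rex1, had a kept site at its start (chr8:43306799-43307531) with folds of 25.8 and 25.9 untreated and 13.2 and 14.5 treated in WT cells. Esrrb, a nuclear receptor of the naive network, had 2 kept sites, the larger (chr12:86501630-86502379) at 15.9 and 16.5 untreated and 12.4 and 12.97 treated in WT cells. Klf5 had a kept site with folds of 28.0 and 25.2 untreated and 8.54 and 6.87 treated. Klf2 had a kept site 2668 bp from a start (15.4 and 13.5 untreated, 5.91 and 7.23 treated), whereas the stronger site 127 bp from a start (26.5 and 23.6 untreated) had a fold of 5.44 in treated WT replicate 1 and no peak in replicate 2. Tbx3 had a kept site of 9.85 and 7.07, and its stronger site of 21.5 and 17.3 had no treated WT peak. Sox2, Tfcp2l1 and Trp53 had no kept site within 10 kb.

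Among P53 targets, Cdkn1a, the cell-cycle inhibitor p21, had a kept site 70 bp from a start (chr17:29093245-29095555) with KLF4 folds of 18.9 and 19.7 untreated and 6.99 and 8.39 treated in WT cells. P53 folds there were 10.1 and 10.53 in treated WT and 9.16 and 11.97 in treated knockdown cells, with no untreated P53 peak. Mdm2, the ubiquitin ligase that restrains P53, and Ccng1 had KLF4 sites that were not kept, with folds of 16.1 and 12.8 and of 15.0 and 21.2 in untreated WT cells and no treated WT peak. Both had P53 peaks in all 4 treated P53 libraries, at folds of 6.26 to 7.097 for Mdm2 and 13.8 to 17.2 for Ccng1. Bbc3, a pro-apoptotic gene also called Puma, had a kept site at 41.1 and 38.9 untreated and 13.7 and 14.9 treated in WT cells, and P53 folds of 13.96 and 14.2 in treated WT cells, with 7.75 and 7.31 in untreated and 11.8 and 12.7 in treated knockdown cells. The Sp1 promoter site, of an SP family factor, had P53 folds of 25.8 and 25.6 in treated WT and 26.5 and 27.9 in treated knockdown cells, and of 10.8 and 10.8 in untreated WT and 11.2 and 11.04 in untreated knockdown cells, beside KLF4 folds of 54.9 and 60.5 untreated and 44.3 and 44.1 treated in WT cells.

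By gene list, a kept site lay within 10 kb of the gene body of 5544 of 21887 protein-coding genes (25.3%). It did so for 16 of 20 Kruppel-like and SP factors, 8 of 13 LIF and STAT3 signalling genes, 9 of 15 general and 11 of 20 naive pluripotency genes, 11 of 19 G1/S and replication genes, 16 of 32 P53 targets, 5 of 13 formative and primed genes, 8 of 25 DNA repair genes and 3 of 20 fibroblast and feeder genes. In the signalling list, Pim1, a kinase and STAT3 target, had 53.3 and 42.2 untreated and 31.2 and 29.8 treated in WT cells. Stat3 had 36.4 and 31.4 untreated and 10.9 and 11.4 treated, and Socs3, the feedback inhibitor, 28.6 and 31.4 untreated and 6.21 and 7.63 treated. The receptor genes Lifr and Il6st had only sites that were not kept. In the cell-cycle list Ccne1 had 50.8 and 52.7 untreated and 21.0 and 17.5 treated, and in the repair list Pcna had 30.8 and 28.3 untreated and 10.2 and 10.6 treated.

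RNA levels of genes with a kept site at the promoter were then read. A total of 3497 genes had a kept summit within 1 kb of a start, of which 3136 matched a symbol of the first RNA table and 2967 passed the filter of 1 FPKM in at least 2 libraries. Their median level in untreated WT cells was 16.002 FPKM, against 10.1 FPKM for 4922 genes whose only sites were not kept and 5.04 FPKM for 2306 genes with none. In WT cells 1251 of the 2967 (42.2%) were higher and 1085 (36.6%) lower after treatment, where of all 12733 genes tested 39.3% were higher and 37.6% lower (limma, adjusted p under 0.05). Their median log2 change was 0.05, and that of all genes 0.01. In knockdown cells 1067 (35.96%) were higher and 1010 (34.0%) lower, against 31.5% and 37.1% of all genes. The response was more positive in knockdown than in WT cells for 480 (16.2%) and more negative for 523 (17.6%), against 13.6% and 19.5% of all genes. In knockout cells at 3 h 29 of 3027 were higher and 3 lower, against 0.61% and 0.121% of all 14103 genes tested. In P53 knockdown cells at 3 h 123 (4.06%) were higher and 120 (3.96%) lower, against 3.2% and 2.64%. These shares lie near those of all genes. The knockout count of 32 was 4 to 21 when any 1 of the 4 compared libraries was left out, and 5 without the 10 uM libraries. With only the compared groups in the model, 0 of the P53 knockdown genes passed (limma), with 261 at an unadjusted p under 0.05.

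Values that moved with treatment in the first RNA set bear on these counts. Genes on chromosome 6 had a median log2 change of 0.56 in WT and 0.55 in knockdown cells, and the 181 tested genes there with a kept promoter site had 0.72 and 0.78, against medians of 0.02 and 0.03 for chromosome 6 in knockout and P53 knockdown cells of the time course. Without chromosomes 6 and 8, 38.7% of 2573 kept-site genes were higher and 39.1% lower in WT cells, against 37.4% and 39.1% of all 11420 genes tested there. All 10 markers of fibroblasts and feeder cells fell in both genotypes, with sums of 583 to 598 FPKM in untreated and 161 to 169 FPKM in treated WT cells, and 556 to 560 and 155.9 to 156.5 FPKM in knockdown cells. None was at 0 in all libraries. In the time course 0 of these 10 markers passed the test between 0 h and 3 h, with sums of 694 to 715 and 702 to 713 FPKM in knockout cells. In P53 knockdown cells the sums were 305 to 473 FPKM at 0 h and 271 to 513 FPKM at 3 h, so the libraries of a group lay far apart there. In bulk samples fewer cells of a type and less RNA per cell cannot be told apart, and the part of these values in the RNA results was not tested.

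By the rule of largest change, the largest increases in treated WT cells among kept-site genes were those of Hnrnpd, Rnaset2a, Prrt3, Ier5l, Zxdc, Setmar, Lrrc3 and Tmem43. Prrt3, Zxdc, Setmar and Tmem43 lie on chromosome 6. Hnrnpd was listed at 0 in both untreated WT libraries and at 37.0 and 34.8 FPKM in the treated ones, with 63.8 and 62.6 FPKM in untreated knockdown cells, so no fold is given. Rnaset2a has a near-identical copy, Rnaset2b, and its values are uncertain. Ier5l, an immediate early response gene of the Ier5 family, went from 11.7 and 12.8 to 92.3 and 80.6 FPKM (log2 change 2.72 ± 0.09 SE, adjusted p = 2.9e-08, limma). In knockout cells of the time course it went from 8.66 and 8.68 to 21.8 and 20.9 FPKM at 3 h (log2 change 1.21 ± 0.14 SE, adjusted p = 0.00056, limma). KLF4 folds at its start were 12.04 and 11.01 untreated and 8.54 and 8.39 treated in WT cells. Lrrc3 went from 0.990 and 0.848 to 10.3 and 9.04 FPKM in WT and from 0.797 and 0.871 to 2.60 and 2.95 FPKM in knockdown cells. The treated and untreated libraries did not overlap in either genotype, and the responses differed by -1.43 ± 0.14 (SE, log2, knockdown minus WT, adjusted p = 0.00015, limma).

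The kept-site genes that fell most were Chtop, Bnip3, Aldoc, Ero1l, Anxa2, Slc2a1, P4ha1 and Pim1. Chtop was listed at 0 in both treated WT libraries and at 77.9 and 74.0 FPKM in the untreated ones, and no fold is given. Bnip3, Aldoc, Ero1l, Slc2a1 and P4ha1 are genes known to respond to low oxygen. Slc2a1, the glucose transporter GLUT1, went from 488 and 459 to 109 and 105.3 FPKM in WT cells and from 141 and 212 to 124 and 120 FPKM in knockdown cells. The untreated WT level thus lay above both untreated knockdown libraries. Its KLF4 folds were 44.4 and 43.2 untreated and 15.53 and 17.5 treated in WT cells. Pim1 went from 44.2 and 43.1 to 9.93 and 9.92 FPKM in WT cells (log2 change -2.03 ± 0.05 SE, adjusted p = 1.2e-08, limma) and from 37.6 and 37.5 to 19.2 and 20.3 FPKM in knockdown cells. Pim1 was at 58.3 and 54.7 FPKM at 0 h and 40.003 and 35.6 FPKM at 3 h in knockout cells, a change that did not pass the test (log2 change -0.57 ± 0.15 SE, adjusted p = 0.095, limma).

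The gene lists showed both directions among genes with a kept site within 10 kb. They are read against all genes (39.3% higher and 37.6% lower in WT cells) and against the members of the same list whose sites within 10 kb were not kept. Of 16 P53 targets, 13 rose and 3 fell in treated WT cells, with a median log2 change of 1.07. Of 13 targets with a site not kept, 11 rose and 1 fell, with a median of 0.62, so most rose in both classes. Trp73, a P53 family member, rose from 1.16 and 0.874 to 20.4 and 21.7 FPKM. Btg2, an anti-proliferative gene, rose from 37.3 and 37.3 to 148 and 151 FPKM. Both are named after their values were seen. Cdkn1a was among those that fell, from 183 and 172 to 157 and 146 FPKM (log2 change -0.23 ± 0.05 SE, adjusted p = 0.0027, limma), while in the time course it rose at 3 h, from 120 and 120 to 184 and 189 FPKM in knockout cells (log2 change 0.63 ± 0.10 SE, adjusted p = 0.0057, limma). In P53 knockdown cells 9 of the 16 rose and 0 fell at 3 h, as did 10 and 0 of the 13 with a site not kept, against 3.2% higher and 2.64% lower of all genes (limma). Trp53 RNA was still present in P53 knockdown cells, at 109 and 104 FPKM at 0 h and 112 and 94.6 FPKM at 3 h. In knockout cells it was at 301 and 287 FPKM at 0 h. With only the compared groups in the model, 0 genes with a kept site at the promoter passed, as given above.

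Of 11 naive pluripotency genes with a kept site, 2 rose (Klf4 and, named after its value was seen, Gbx2) and 7 fell in treated WT cells, with a median log2 change of -0.79. Of 6 with a site not kept, 1 rose and 5 fell, with a median of -0.60. In knockdown cells 3 of the 11 rose and 5 fell, against 31.5% and 37.1% of all genes, and of the 6 with a site not kept 1 rose and 5 fell. The response was more positive than in WT cells for 8 of the 11 and more negative for 0, against 3 and 0 of the 6 with a site not kept and 13.6% and 19.5% of all genes. Esrrb fell from 82.3 and 82.8 to 34.4 and 33.0 FPKM in WT and from 90.9 and 91.2 to 74.2 and 73.7 FPKM in knockdown cells. Zfp42 fell from 220 and 224 to 128 and 128 FPKM in WT and from 309 and 290 to 271 and 273 FPKM in knockdown cells. Of the 16 Kruppel-like and SP factors 3 rose and 7 fell in WT cells, and of 8 LIF and STAT3 genes 2 rose and 4 fell. Of 9 general pluripotency genes 4 rose and 5 fell, of 11 G1/S and replication genes 6 rose and 3 fell, of 8 DNA repair genes 3 rose and 3 fell, of 5 formative and primed genes 2 rose and 2 fell, and all 3 fibroblast genes fell. Where the site was not kept, 1 rose and 1 fell of 2 Kruppel-like and SP factors, 2 and 3 of 5 LIF and STAT3 genes, 1 and 3 of 5 general pluripotency genes, 2 and 3 of 7 G1/S and replication genes, 6 and 5 of 16 DNA repair genes, 1 and 3 of 6 formative and primed genes, and 0 and 8 of 8 fibroblast genes. No difference between the classes was tested. The WT and knockdown responses come from separate control libraries.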

How the data were processed

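Peak lists and expression tables were analysed as deposited. Per the submitters' processing notes, the tools were Bowtie2 2.1.0, MACS2 2.2.7.1, TopHat2 2.0.8, Cufflinks and Cuffdiff 2.1.1 and CASAVA 2.19, with genome build mm10. The notes state neither settings nor the annotation. In the deposited lists each peak carries a ratio, its fold over the control track, and the −log10 of p and of q. The lowest −log10 q lay between 2.00 and 2.32 in all 24 lists, each of them called on a single library. The deposited tables hold FPKM, per the file headers 1 column per library. In the time course 12 columns were not used, because their names do not match a labelled sample, so the combined-loss cells are not analysed here.

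Overlaps of 1 bp or more were computed in Python 3.11.15 and checked against bedtools 2.31.1 on simulated data. Where several peaks overlapped a site, the highest fold was used. In the median fold over all kept sites a site with no peak ranked lowest. The nearest start came from RefSeq promoter windows (GRCm38.p6, 32817 windows) and gene bodies from RefSeq positions. Sequences by coordinates were read only inside those windows, so the motif shares near summits cover part of the sites, and 101 kept sites on chromosome 18 have neither start nor sequence here. Libraries were the units of exact permutation tests. Differences in log2(FPKM + 1) were tested by limma 3.58.1 under R 4.3.3 (all groups of a table in 1 model, trend, Benjamini-Hochberg over all genes tested), for genes at 1 FPKM in at least 2 libraries, so folds of low genes are understated. Among 24206 symbols of the first RNA set, 74.5% matched a gene with a start. There were 280 repeated symbols: 140 had equal values and counted as a single gene, and 140 were left out. The limma fit was tested on simulated data. Depth is unknown, so only the spread between libraries is given.

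Named sites and genes followed a rule: the 10 kept sites of highest WT fold near a gene with no untreated P53 peak, up to 5 genes per list, the 8 kept-promoter genes that rose and the 8 that fell most in treated WT cells with no overlap between libraries, 14 fixed genes, and 3 sites on each side of the rule's edge. The members and lists were chosen with earlier results of these data known. Alternatives were overlaps covering 0.5 of a site, peaks with −log10 q of at least 5, replicate 2 as the source of sites, sites with untreated P53 peaks left out, each library left out, and for RNA another pseudocount (0.1), no filter, quantile scaling, a replicate block, only the compared groups, and 10 uM libraries left out. The exclusion of chromosomes 6 and 8, a crossed block, and the exchange or omission of the treated knockout and untreated deletion rescue libraries were added after the data were seen.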

Additional observations from a re-analysis of the deposited data

Results flagged for a closer look

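Among the named genes, 18 had a response to etoposide that differed between Lnc956 knockdown and WT cells in the first RNA set (interaction contrast in limma, adjusted p under 0.05 over all 12733 genes tested, of which 13.6% were more positive and 19.5% more negative). Values are log2 differences, knockdown response minus WT response. Apart from the fixed genes, these genes were chosen for the largest rise or fall in WT cells, and the difference uses the same WT libraries. A smaller response in knockdown cells is therefore favoured by the choice, and the values are a description. Genes with a kept site at the promoter that fell less in knockdown cells were Bnip3 (1.15), Ero1l (1.25), Slc2a1 (1.63), P4ha1 (0.59), Anxa2 (0.47), Pim1 (1.14) and Zfp42 (0.65). For Bnip3, Ero1l, Slc2a1, P4ha1, Anxa2 and Pim1 both untreated knockdown libraries lay below both untreated WT libraries. Genes with a kept promoter site that rose less in knockdown cells were Lrrc3 (-1.43), Zxdc (-0.75), Tmem43 (-0.79) and Ier5l (-0.47). Of the fixed genes without a kept site at the promoter, Nanog (1.31), Esrrb (0.97), Klf2 (0.36), Tfcp2l1 (0.33) and Sox2 (0.26) fell less in knockdown cells. Mdm2 (-0.96) rose less, and Ccng1 (-0.59) rose in WT cells and did not pass the test in knockdown cells. Hnrnpd and Chtop, listed at 0 in a group, are given no value.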

How the results depend on the processing

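The lower median fold after treatment (-0.40) did not pass with the labels of treated knockout and untreated deletion rescue libraries exchanged (-0.12, exact permutation p = 0.43), nor in the full-length rescue line alone (-0.85, where the smallest exact permutation p is 0.333). Under the other alternatives run it passed. The higher share of kept than not kept sites with a peak, which the choice of strong sites favours, passed under each one run. The P53 share was higher after treatment under each one run, in a design that cannot pass 0.05. Leaving out each library gave 41.3 to 52.6 points, -0.45 to -0.35 (log2) and 26.7 to 30.5 points. The P53 difference was 12.9 points when a peak had to cover 0.5 of a site. The treated minus untreated share of kept sites with a peak ranged from -2.14 to -0.93 points over left-out libraries, was -2.49 when a peak had to cover 0.5 of a site, and passed the test without untreated knockout replicate 2 (-1.16 points, exact permutation p = 0.00926). The number of kept sites was 2504 when 0.5 of a site had to be covered and 4898 to 6062 with the rule on 3 WT libraries. The share within reach of a start was 58.0% at 500 bp and 69.8% at 5 kb, 64.003% without sites that had an untreated P53 peak, 64.3% without chromosomes 6 and 8, and 60.6% to 61.2% over left-out WT libraries. With 100 bases on each side, 31.2% of summits held the KLF motif.

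Of kept-site genes past the threshold (2336 in WT, 2077 in knockdown, 1003 for the difference, 32 in knockout and 243 in P53 knockdown cells), assignment within 10 kb of the gene body gave 3906, 3485, 1757 and, for P53 knockdown, 388. The knockout count is unstable: 5 without the 10 uM libraries, 5 with only the compared groups, 70 with a pseudocount of 0.1, 13 after quantile scaling and 4 to 21 over left-out libraries. P53 knockdown with only the compared groups gave 0 (261 at an unadjusted p under 0.05, limma). Left-out libraries gave 2139 to 2211 in WT, 1845 to 1897 in knockdown, 758 to 879 for the difference and 223 to 281 in P53 knockdown cells. The cause was not tested. Klf5 in WT cells, which did not pass the test, was at -0.046 (log2) after quantile scaling and at -0.12 to 0.15 with each library left out (-0.042 without untreated replicate 2), and Ccng1 in knockdown cells to -0.0053 after quantile scaling.

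Replicate numbers gave no sign of pairing in the KLF4 libraries (r between replicate differences of 0.021 in knockout, -0.0037 in full-length rescue and -0.010 in deletion rescue cells). With the replicate block, exact sign-flip permutation over pairs gave p = 0.281 for the share, 0.0313 for the fold (-0.40) and 0.125 for P53, and the block gave 2314, 2048, 980, 32 and 255 kept-site genes. A crossed block in WT cells, tried because same-numbered libraries deviated in opposite directions (r = -0.16), gave 2295. For RNA the r was -0.16 in WT, -0.04 in knockdown, 0.06 in knockout and 0.52 in P53 knockdown cells. In P53 knockdown cells same-numbered libraries thus deviated in the same direction, which the main model left out. The replicate block gave 255 kept-site genes there, against 243 in the main model. The labels give no more than a shared number, and each group has 2 libraries. Of 179 recomputed main values 157, and of 896 for named genes 850, kept direction and side of the threshold or, for values without a test, stayed within 1.5 times the main count or within the 95% exact binomial interval of the main share. Without read counts, depth sets no limit that can be given here.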
